A study of Homo sapiens with 16 samples.

Results

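The mRNAs of the LIS1-NDEL1 dynein pathway were followed across microRNA (miRNA) pulldowns from HEK 293, an established human line first grown from embryonic kidney. They were 9 of the 19077 genes in the count table, chosen by symbol with their levels by miRNA already known: NDEL1, NDE1, PAFAH1B1, NUDC, DYNC1H1, DYNC1I2, DYNLL1, DCTN1 and DCTN2. Levels and differences of these 9 genes are therefore given as a description, without p-values of their own, and nothing is read from whether one of them passed the threshold used for all genes. The assay was the RISC trap, in which a dominant-negative GW182, the product of TNRC6A, keeps mRNAs bound to the silencing complex and its miRNA, so that both can be precipitated and the polyA RNA sequenced. There were 2 libraries each for mir1301-3p, mir1180-3p, mir1260a-5p, mir1271-5p, mir3613-5p and mir550-3p, and for mir124-3p 1 library titled Solid and 3 titled Illumina. All came from HEK 293 cells, and the labels name no genotype, dose, time or library without a miRNA, and each level can be judged only against those of other pulldowns. The descriptions of both mir550-3p libraries and of 1 mir1301-3p library have "bio" in their names, but no label says in words that replicates were separate cultures, and the spread between them may be technical. A SOLiD kit is named for all 16 libraries, while the machine that read the 12 libraries not of mir124-3p is unnamed in the labels, so in comparisons with mir124-3p platform and miRNA cannot be told apart.

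Dynein 1 is the motor that carries cargo toward the minus ends of microtubules, and dynactin is the complex that binds it to cargo. LIS1, the product of PAFAH1B1, binds the dynein motor, and the coiled-coil proteins NDEL1 and NDE1 tether LIS1 to it. In the developing cortex this module moves the nucleus and orients the spindle of dividing progenitors: loss of 1 copy of PAFAH1B1 causes lissencephaly, and loss of NDE1 causes microcephaly with lissencephaly.

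The sequences of the miRNAs decide which mRNAs pair with them, and the seed, bases 2 to 8, is printed here in capitals. RefSeq (GRCh38.p14) held 6 of the 7 mature sequences, with 6 distinct seeds, so that no 2 of these pulldowns shared a seed. Seed matches in the mRNAs were not analysed here.
mir1301-3p: uUGCAGCUgccugggagugacuuc
mir1180-3p: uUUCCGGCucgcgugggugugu
mir1260a-5p: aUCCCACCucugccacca
mir1271-5p: cUUGGCACcuagcaagcacuca
mir3613-5p: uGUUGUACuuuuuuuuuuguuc
mir550-3p: uGUCUUACucccucaggcacau
The mir1301-3p sequence lies on the minus strand at chr2:25328651-25328674 and mir1180-3p on the minus strand at chr17:19344513-19344534. The entry named hsa-miR-1260a, with no arm in its name, was taken for mir1260a-5p and lies on the plus strand at chr14:77266231-77266248. The mir1271-5p sequence lies on the plus strand at chr5:176367960-176367981 and mir3613-5p on the minus strand at chr13:49996465-49996486. The entry hsa-miR-550a-3p, taken for mir550-3p, has 2 loci, on the minus strand at chr7:29680748-29680769 and on the plus strand at chr7:32733041-32733062. The mir124-3p pulldowns are given by name.

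Libraries held between 7612758 and 26527365 counts, so that 3 counts, the limit behind a count of 0, were worth 0.113 to 0.394 counts per 1000000 (CPM) by counting error alone. TNRC6A took 5.11% of the counts in the mir124-3p Solid library and 1.07% to 4.003% in the Illumina libraries, against 0.665% to 1.49% in the 12 libraries of the other miRNAs. Replicates of 2 miRNAs did not resemble each other: over 17658 genes, the deviations from the mean of the groups correlated at -0.12 between the mir1260a-5p libraries and at -0.13 between the mir1271-5p libraries, against 0.60 for mir1301-3p, 0.42 for mir550-3p, 0.31 for mir1180-3p and 0.17 for mir3613-5p. Genes typical of HEK 293, such as the neurofilament genes and VIM, summed to between 1007 and 2034 CPM in the 16 libraries, and none of the 9 was at 0.

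NDEL1 was recovered most with mir1301-3p. It had 206 and 166 CPM in the mir1301-3p libraries. With the other miRNAs of 2 libraries it had 42.7 and 46.7 CPM (mir3613-5p), 38.2 and 33.3 CPM (mir1180-3p), 33.8 and 37.5 CPM (mir550-3p), 35.2 and 31.4 CPM (mir1260a-5p), and 30.4 and 15.4 CPM (mir1271-5p). Both mir1301-3p libraries thus lay far above the other 10, whose highest value was 46.7 CPM, and the mir1271-5p pair lay below all others. The mean of 186 ± 28.0 CPM with mir1301-3p (SD, n = 2) was 5.39 times the mean of 34.5 ± 8.40 CPM in the other 10 libraries (SD), and the fitted log2 fold change was 2.47 ± 0.25 (SE). These bulk pulldowns cannot tell apart more mRNA per cell and recovery from more cells, nor a higher level in the cells and more of it on the complex. The fold change lay between 2.20 and 2.88 over 17 other settings.

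With mir124-3p, a miRNA abundant in neurons, NDEL1 lay between these levels. It had 108 CPM in the Solid library and 97.2, 105.6 and 112 CPM in the Illumina libraries, against a median of 36.4 CPM in the 12 libraries of the other miRNAs. All 4 were above every library of 5 of the other miRNAs and below both mir1301-3p libraries. The log2 fold change of the Solid library was 1.15 ± 0.35 (SE) against all 6 miRNAs and 1.56 with mir1301-3p left out of the reference. Against all 6 it missed the threshold in 8 of the 12 fits that left out 1 library (each mir1260a-5p, mir1301-3p and mir550-3p library, mir1180-3p replicate 2 and mir3613-5p replicate 1; 1.14 to 1.20). The mir1301-3p libraries also sit in the reference of every other miRNA, where NDEL1 had log2 fold changes of -1.09 (mir1271-5p), -0.53 (mir1260a-5p), -0.50 (mir1180-3p), -0.44 (mir550-3p) and 0.09 (mir3613-5p). With mir1301-3p left out of the reference these were -0.63, -0.04, 0.01, 0.06 and 0.60.

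**Figure D1:**
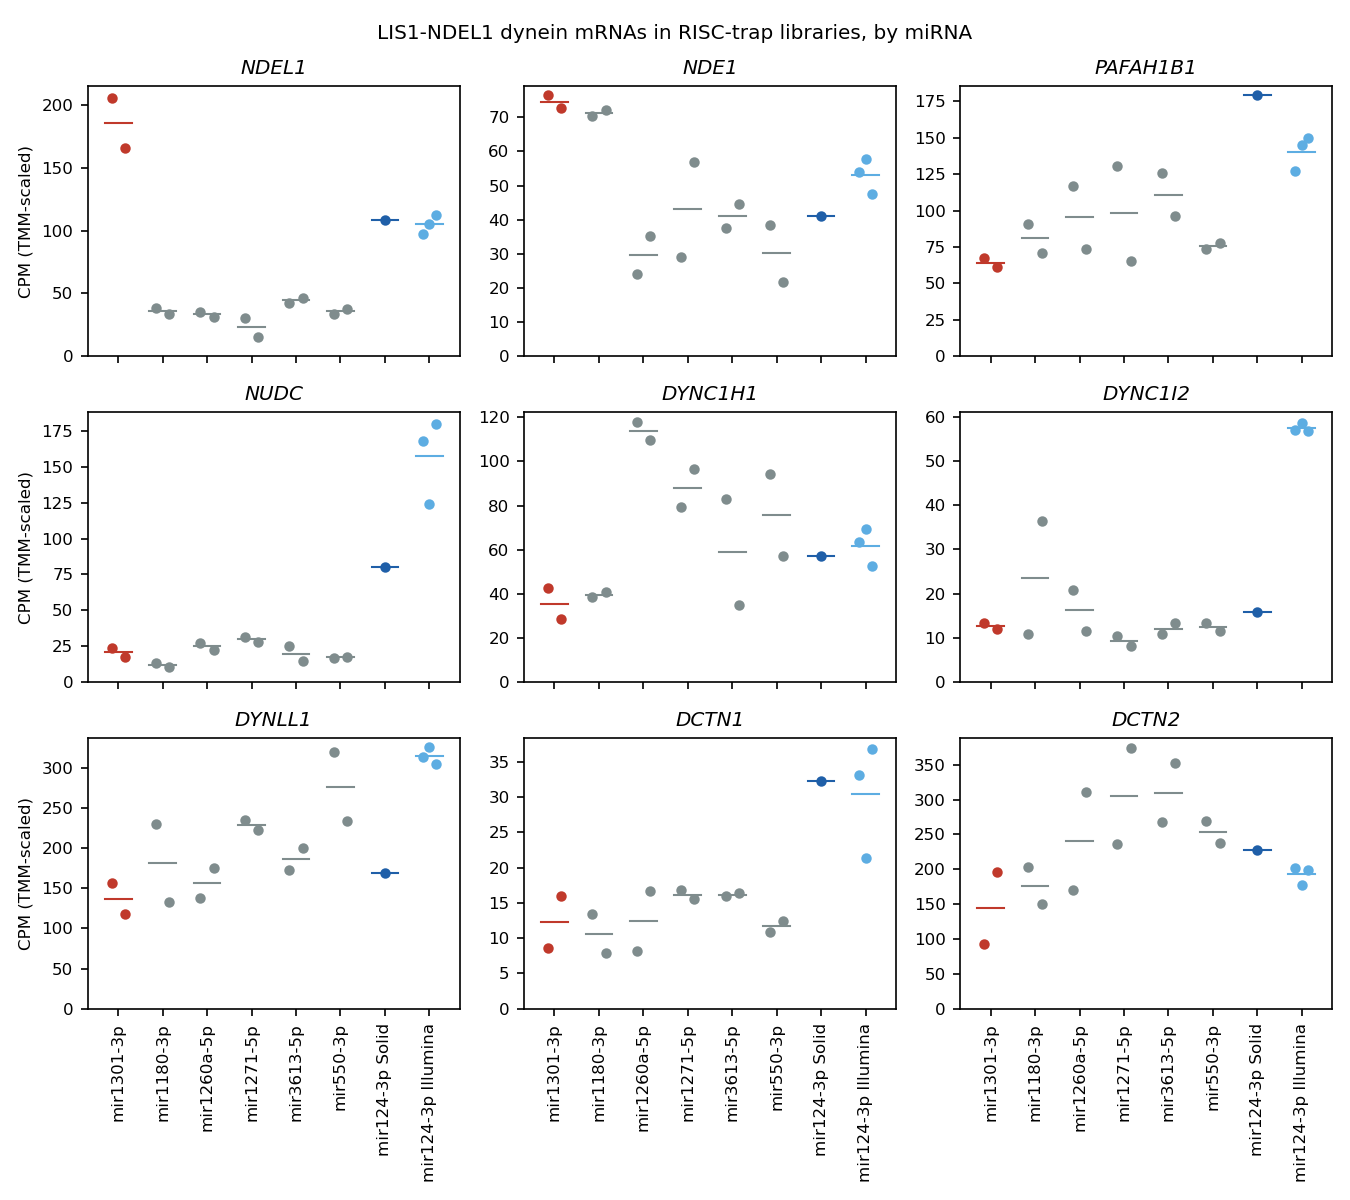
Level of each of the 9 genes in TMM-scaled CPM (vertical axes, each from 0) in all 16 libraries, grouped by miRNA; points are libraries and lines are group means. NDEL1 stood at 166 and 206 CPM with mir1301-3p, above the other libraries, and NUDC at 80.4 to 179 CPM with mir124-3p.

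The NDEL1 gene overlaps MYH10, a non-muscle myosin gene on the other strand, in the RefSeq table, and no label or header states the strand setting of the counting, so reads of the overlap cannot be told apart. MYH10 was not higher with mir1301-3p: it had 46.7 and 34.2 CPM in the mir1301-3p libraries, against 42.4 to 93.3 CPM in the other 10, a log2 fold change of -0.63 ± 0.28 (SE). In the mir124-3p Solid library MYH10 had 81.1 CPM, or 74.8% of the NDEL1 level, against 34.2 to 93.3 CPM in the 12 others, a log2 fold change of 0.35 ± 0.34 (SE). Markers of fibroblasts and mesenchyme, such as COL1A1 and PDGFRB, did move with mir1301-3p. Their sum was 66.7 and 160.3 CPM in the mir1301-3p libraries, against 14.3 to 29.7 CPM in the other 10, and 6 of the 8 passed the test upward, with none at 0 in the mir1301-3p libraries. Of the other marker lists, 1 of 8 neural, 1 of 5 blood and 1 of 3 liver and keratinocyte genes tested were called higher and none lower. Over all 17658 genes tested 11.5% were called higher and 4.39% lower, so these single calls are no result about those lists. The neural sum was 47.7 to 49.1 CPM with mir1301-3p, against 32.0 to 42.6 CPM in the other 10. Blood markers summed to 11.2 to 12.4 CPM with mir1301-3p, against 6.20 to 14.1 CPM, and those of liver and keratinocytes to 7.07 to 20.6 CPM, against 3.49 to 11.2 CPM. The 9 genes typical of HEK 293 summed to 1007 and 1216 CPM with mir1301-3p, against 1173 to 2034 CPM, and none was called. The part of these markers in the NDEL1 result was not tested.

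NDE1, the paralog of NDEL1 with the same role at LIS1, was high with a pair of miRNAs. It had 76.5 and 72.6 CPM with mir1301-3p and 70.3 and 72.2 CPM with mir1180-3p. The remaining 8 libraries lay lower, at 29.0 and 57.1 CPM (mir1271-5p), 37.6 and 44.7 CPM (mir3613-5p), 38.4 and 21.8 CPM (mir550-3p), and 24.2 and 35.1 CPM (mir1260a-5p). These 4 groups overlapped one another in the order of their means, while mir1301-3p and mir1180-3p stood apart from them and, by under 1 CPM, from each other. The log2 fold change was 0.88 ± 0.30 with mir1301-3p and 0.68 ± 0.31 with mir1180-3p (SE), and neither passed the threshold. The mir1301-3p difference did pass it under some other settings, among them upper-quartile scaling (1.27), leaving out mir1260a-5p replicate 2 (0.94) or mir1271-5p replicate 2 (0.97), and having mir124-3p Solid in the reference (0.89). NDE1 had 41.0 CPM in the mir124-3p Solid library and 54.1, 57.8 and 47.4 CPM in the Illumina libraries, within the range of the other 12.

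The levels of NDE1 need care because NDE1 overlaps MYH11, a smooth muscle myosin gene. Of 11466 genes with a mean of at least 5 CPM, MYH11 was the one whose log2 CPM tracked NDE1 most closely over the 12 libraries of the 6 miRNAs, with r = 0.92, and NFIB came next at r = 0.91. MYH11 had 40.7 and 53.8 CPM with mir1301-3p and 46.6 and 35.7 CPM with mir1180-3p, against 10.7 to 40.4 CPM in the remaining 8 libraries, the highest being the mir1271-5p library that was also highest of those 8 for NDE1. MYH11 was 63.4% of the NDE1 level with mir1301-3p. In the Illumina libraries MYH11 had 2.82, 2.49 and 2.58 CPM, while NDE1 stayed at 47.4 to 57.8 CPM. How many reads of either gene came from the overlap was not tested.

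**Figure D2:**
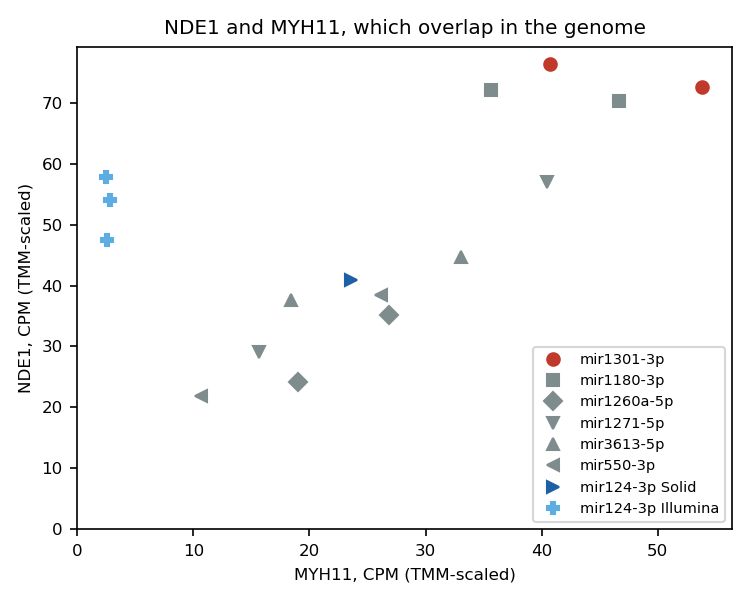
NDE1 (vertical) against MYH11 (horizontal), both in TMM-scaled CPM, with 1 point per library and symbols for the miRNA. The 12 libraries of the 6 miRNAs ran together (r = 0.92 on log2 CPM), and the 3 Illumina libraries of mir124-3p had 2.49 to 2.82 CPM of MYH11.

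PAFAH1B1, which encodes LIS1 itself, did not share the NDEL1 pattern. It had 67.6 and 61.0 CPM with mir1301-3p, the lowest group mean of the 6. The other groups had 125.6 and 96.4 CPM (mir3613-5p), 131 and 65.3 CPM (mir1271-5p), 117 and 73.7 CPM (mir1260a-5p), 91.0 and 70.9 CPM (mir1180-3p), and 73.6 and 77.9 CPM (mir550-3p). Most of these groups overlapped, with only mir550-3p and mir1301-3p apart among neighbours in the order, and the 2 mir1271-5p libraries differed by 2.01 times. The rank of mir1301-3p depended on the scaling. Scaled to the library total, PAFAH1B1 had 86.7 and 80.2 CPM with mir1301-3p, above the 68.7 and 72.2 CPM with mir550-3p. Its log2 fold change with mir1301-3p was -0.50, and -0.08 under upper-quartile scaling. The mir124-3p Solid library had 179.7 CPM, above all 12 others, and the Illumina libraries had 127, 145 and 149.7 CPM. The log2 fold change of the Solid library was 0.94 ± 0.37 (SE), which did not pass the threshold except without mir1271-5p replicate 1 (1.04). Its likest genes were TSC22D2 (r = 0.94) and CAPN7 (r = 0.93).

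NUDC encodes a nuclear distribution protein that acts with HSP90 and binds LIS1 and dynein. It was recovered most with mir124-3p, at 80.4 CPM in the Solid library and 168, 124 and 179 CPM in the Illumina libraries. In the 12 libraries of the other miRNAs it had 31.7 and 28.3 CPM (mir1271-5p), 27.7 and 22.5 CPM (mir1260a-5p), 23.6 and 18.0 CPM (mir1301-3p), 25.4 and 14.6 CPM (mir3613-5p), 17.0 and 17.9 CPM (mir550-3p), and 13.6 and 10.6 CPM (mir1180-3p). Both ends of that order stood clear, mir1271-5p above the other 10 libraries and mir1180-3p below them, and the 4 groups between them overlapped with their neighbours. The upper gap was small, at 28.3 against 27.7 CPM, and depended on the scaling. By library total mir1271-5p had 29.0 and 30.6 CPM, and mir1260a-5p replicate 1 had 31.2 CPM. The log2 fold change of the Solid library was 1.88 ± 0.34 (SE), from 1 library, and lay between 1.70 and 1.98 over 16 other settings. Differences of 0.75 ± 0.30 with mir1271-5p and -0.99 ± 0.34 with mir1180-3p (SE) did not pass it. The Illumina libraries lay above the Solid library, and platform and library cannot be told apart there. NUDC overlaps GPATCH3 on the other strand and also NR0B2, and in the Solid library GPATCH3 had 17.1 CPM, against 4.80 to 9.46 CPM in the 12 others, or 21.3% of the NUDC level.

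The dynein heavy chain DYNC1H1, which holds the motor domain, had group means of 114 CPM with mir1260a-5p and 35.5 CPM with mir1301-3p at the ends of its order. It had 118 and 109.7 CPM with mir1260a-5p, against a highest value of 96.5 CPM in the other 10 libraries. Next came 79.5 and 96.5 CPM (mir1271-5p), 94.3 and 57.4 CPM (mir550-3p), and 83.2 and 34.9 CPM (mir3613-5p). The lowest were 38.6 and 40.7 CPM with mir1180-3p and 42.5 and 28.5 CPM with mir1301-3p, and below mir1260a-5p every group overlapped its neighbour. Which of these was lowest depended on the scaling. By library total mir1301-3p had 54.5 and 37.5 CPM, and mir1180-3p had 35.7 and 38.3 CPM. The mir3613-5p libraries differed by 2.39 times. Log2 fold changes were 1.003 ± 0.30 with mir1260a-5p, -0.92 ± 0.35 with mir1180-3p and -0.99 ± 0.36 with mir1301-3p (SE). None of the 3 passed the threshold, although DYNC1H1 in mir1301-3p did under some other settings, among them DESeq2 (-1.01) and leaving out mir3613-5p replicate 2 (-1.08). The mir124-3p Solid library had 57.2 CPM and the Illumina libraries 63.4, 69.6 and 52.8 CPM, within the range of the others.

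DYNC1I2, the intermediate chain that joins the motor to dynactin, was at 8.32 to 20.9 CPM in 11 of the 12 libraries of the 6 miRNAs. The exception was 1 mir1180-3p library at 36.3 CPM, whose replicate had 10.9 CPM, 3.32 times lower. The mir124-3p Solid library had 15.9 CPM, within that range, while the Illumina libraries had 57.0, 58.5 and 56.7 CPM, above all the others. Against the Solid library, which had the same miRNA, platform and library cannot be told apart. Against the 12 libraries of the other miRNAs, platform and miRNA cannot be told apart.

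DYNLL1 encodes the light chain LC8, a small hub protein that also binds many partners outside dynein. It had 319 and 234 CPM with mir550-3p, 235 and 222 CPM with mir1271-5p, 172 and 200.3 CPM with mir3613-5p, 231 and 133 CPM with mir1180-3p, 138 and 175 CPM with mir1260a-5p, and 156 and 118 CPM with mir1301-3p. Only mir1271-5p and mir3613-5p were apart among neighbours in that order. The mir550-3p difference of 0.62 ± 0.27 (SE) on the log2 scale did not pass the threshold. DYNLL1 had 169 CPM in the Solid library of mir124-3p and 314, 326 and 305 CPM in the Illumina libraries. RefSeq names 7 pseudogenes of DYNLL1, none of them in the count table, so its reads may be shared with near-identical copies. Pseudogenes of NDE1, PAFAH1B1, NUDC and DYNC1I2 are named there too, and are likewise absent from the count table.

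Neither of the dynactin subunits had neighbouring groups apart in the order of the 6 miRNAs. DCTN1 (p150Glued, which grips the microtubule and the dynein intermediate chain) lay between 7.87 and 16.8 CPM in all 12 libraries of the 6 miRNAs. With mir124-3p it had 32.2 CPM in the Solid library and 33.2, 21.4 and 36.9 CPM in the Illumina libraries, all 4 above the other 12. For the Illumina library at 21.4 CPM this depended on the scaling. By library total it had 16.4 CPM, within the range of the 12, whose highest was 21.0 CPM. The rest of the mir124-3p libraries stayed above, at 28.4 to 32.5 CPM. The log2 fold change of DCTN1 in the Solid library, 1.17 ± 0.45 (SE), did not pass the threshold. DCTN2 (dynamitin, which holds the dynactin shoulder together) lay between 92.2 and 374 CPM in the same 12. Its libraries differed by up to 2.13 times within a group, at 92.2 and 197 CPM with mir1301-3p, the lowest mean. That rank depended on the scaling. By library total DCTN2 had 118 and 258 CPM with mir1301-3p, against 187 and 141 CPM with mir1180-3p. The mir124-3p libraries had 228 CPM (Solid) and 202, 178 and 198 CPM (Illumina). DCTN2 overlaps MBD6 on the other strand, and reads of the overlap cannot be told apart. MBD6 had 23.7 and 29.2 CPM with mir1301-3p, or 18.3% of the DCTN2 level, and 68.5 CPM in the mir124-3p Solid library.

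**Figure D3:**
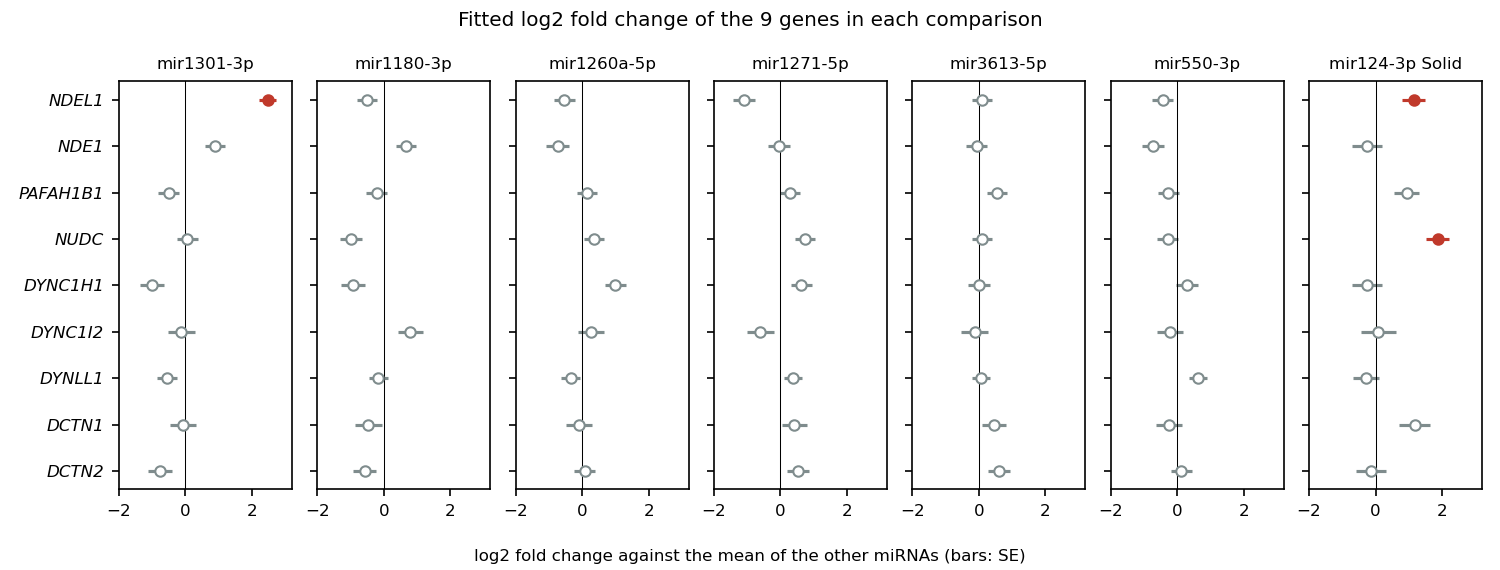
Fitted log2 fold change of each gene (rows) in each pulldown against the mean of the other miRNAs, with bars for the SE; filled points passed an adjusted p under 0.05 over all genes. NDEL1 with mir1301-3p (2.47) and NUDC (1.88) and NDEL1 (1.15) with mir124-3p Solid were the filled points.

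A gene was called when its adjusted p (edgeR quasi-likelihood test, Benjamini-Hochberg over all genes tested) was under 0.05. With mir1301-3p 1 of the 9 genes was called higher and 0 lower, where 11.5% of the 17658 genes tested were called higher and 4.39% lower. DESeq2 called 1338 genes higher and 1663 lower with mir1301-3p, so the balance of directions there depended on the method. With mir124-3p Solid 2 of 9 were called higher and 0 lower, where 7.31% of 18135 were called higher and 1.58% lower. None of the 9 was called by edgeR in the other comparisons. The genes called there were 1.92% higher and 0.153% lower (mir1180-3p), 0.215% higher and 0 lower (mir1260a-5p), 0.606% higher and 0 lower (mir1271-5p), 0.0906% higher and 0 lower (mir3613-5p), and 1.2% higher and 0.306% lower (mir550-3p). In those 5 comparisons 4, 2, 2, 0 and 2 of the 9 had an unadjusted p under 0.05, in that order, and DESeq2 called NDEL1 lower in mir1271-5p and nothing else among them. Since the genes were chosen on these same levels, nothing is read from these counts. The median log2 fold change of the 9 genes was -0.12 with mir1301-3p, -0.46 with mir1180-3p, 0.07 with mir1260a-5p, 0.38 with mir1271-5p, 0.09 with mir3613-5p, -0.24 with mir550-3p and 0.09 with mir124-3p Solid. Over all genes tested the medians were -0.02, -0.07, 0.02, 0.05, 0.01, -0.05 and -0.12 in the same order of miRNAs. Between 2 and 6 of the 9 genes lay above 0 in each of the 7 comparisons, and the comparisons share most of their reference libraries.

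The wider pathway was described with 6 lists, which together held 82 genes: other dynein subunits (8), other dynactin subunits (10), dynein adaptors and regulators (16), partners of LIS1, NDE1 and NDEL1 (14), other genes of neuronal migration (20) and kinesins (14). With mir1301-3p 3 of the 81 tested (3.70%) were called higher and 4 (4.94%) lower, against 11.5% and 4.39% of all genes tested. These shares are no result about the lists. DESeq2 called 2 of the listed genes higher and 8 lower, against 1338 and 1663 of all genes. The median log2 fold change of the 81 was -0.31, against -0.02 over all genes. The light intermediate chains DYNC1LI1 and DYNC1LI2, which link dynein to its cargo adaptors, were both lower. DYNC1LI1 had 27.5 and 37.4 CPM, against 45.6 to 115 CPM in the other 10 libraries, and its log2 fold change was -1.23 ± 0.34 (SE; edgeR adjusted p = 0.027). DYNC1LI2 had 62.4 and 73.8 CPM, against 102 to 301 CPM, a change of -0.997 ± 0.28 (edgeR adjusted p = 0.030). ACTR10 (Arp11, at the pointed end of dynactin) was lower, with a change of -1.39 ± 0.36 (edgeR adjusted p = 0.023). TUBG1, the gamma-tubulin that nucleates microtubules, was lower, with a change of -1.22 ± 0.31 (edgeR adjusted p = 0.022).

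Among migration genes, DCX, the microtubule-binding doublecortin whose loss causes X-linked lissencephaly, had 9.12 and 14.97 CPM with mir1301-3p, against 1.93 to 6.42 CPM in the other 10 libraries. Its log2 fold change was 1.73 ± 0.38 (SE; edgeR adjusted p = 0.013). GPR56, an adhesion receptor gene now named ADGRG1 and mutated in polymicrogyria, stood at 3.38 and 3.56 CPM, against 0.690 to 3.35 CPM, with a change of 1.19 ± 0.39 (edgeR adjusted p = 0.046). The third higher gene was KLC3, a kinesin light chain, whose libraries overlapped the others. None of the 6 genes named with values held its call when either mir1301-3p library was left out. Without replicate 1 and without replicate 2 the values were -1.40 and -1.09 (DYNC1LI1), -0.83 and -1.20 (DYNC1LI2), -1.31 and -1.50 (ACTR10), -0.93 and -1.60 (TUBG1), 2.08 and 1.23 (DCX), and 1.28 and 1.07 (GPR56). GPR56 also lost its call in 8 of the 10 fits that left out another library (at 1.13 to 1.22; it held without mir1271-5p or mir3613-5p replicate 2), with DESeq2 and without the filter on low counts. DYNC1LI2 did so without mir1180-3p replicate 1 (-0.98) or mir550-3p replicate 1 (-0.95), and both light intermediate chains did under upper-quartile scaling (-0.82 and -0.60), which moved the median of all genes by 0.40. The fibroblast markers given above were higher with mir1301-3p, as DCX and GPR56 were, while DYNC1LI1, DYNC1LI2, ACTR10 and TUBG1 were lower. The part of the markers in these differences was not tested.

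With mir124-3p Solid 11 of the 82 listed genes (13.4%) were called higher and 1 (1.22%) lower, against 7.31% and 1.58% of all genes tested. DESeq2 called as many of the listed genes higher and more of them lower, and over all genes more in both directions. The balance of directions in the lists thus depended on the method. The median log2 fold change was 0.14 over the lists, against -0.12 over all genes tested. These values rest on 1 library with no replicate, which was assumed to vary like the others, and its platform and its miRNA cannot be told apart. ACTR1A and ACTR1B, which form the actin-like filament of dynactin, were both higher. ACTR1B had 138 CPM, against 12.1 to 45.9 CPM in the 12 libraries of the other miRNAs, a log2 fold change of 2.40 ± 0.31 (SE; edgeR adjusted p = 0.00011). ACTR1A had 191 CPM, against 29.0 to 78.0 CPM, a change of 1.79 ± 0.36 (edgeR adjusted p = 0.0040). DCTN4 (p62, at the pointed end) was the gene called lower, at 50.1 CPM, against 106 to 275 CPM, a change of -1.77 ± 0.45 (edgeR adjusted p = 0.020).

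Dynein light chains of the roadblock family were higher with mir124-3p Solid, with DYNLRB1 at 84.2 CPM, against 13.4 to 32.2 CPM, a log2 fold change of 1.77 ± 0.37 (SE; edgeR adjusted p = 0.0057). DYNLRB2 was called too (edgeR adjusted p = 0.021; not with DESeq2) but reached only 1.03 CPM, against 0 to 0.547 CPM. The partners of LIS1 and NDEL1 called higher included the mitotic kinase AURKA, at 159 CPM, against 21.9 to 64.1 CPM, with a change of 2.07 ± 0.35 (edgeR adjusted p = 0.0014). TACC3, a spindle protein, changed by 2.03 ± 0.40 (edgeR adjusted p = 0.0038). CDK5, the neuronal kinase that phosphorylates NDEL1, had 42.0 CPM, against 5.43 to 21.3 CPM, and changed by 1.88 ± 0.48 (edgeR adjusted p = 0.021). CRKL, an adaptor of the reelin pathway, had 242 CPM, against 47.0 to 99.3 CPM, and changed by 1.65 ± 0.33 (edgeR adjusted p = 0.0040). Kinesin light chain KLC1 had 95.1 CPM, against 9.82 to 30.2 CPM, and changed by 2.24 ± 0.39 (edgeR adjusted p = 0.0017). The other 2 called higher were CAPZB and KATNA1.

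**Figure D4:**
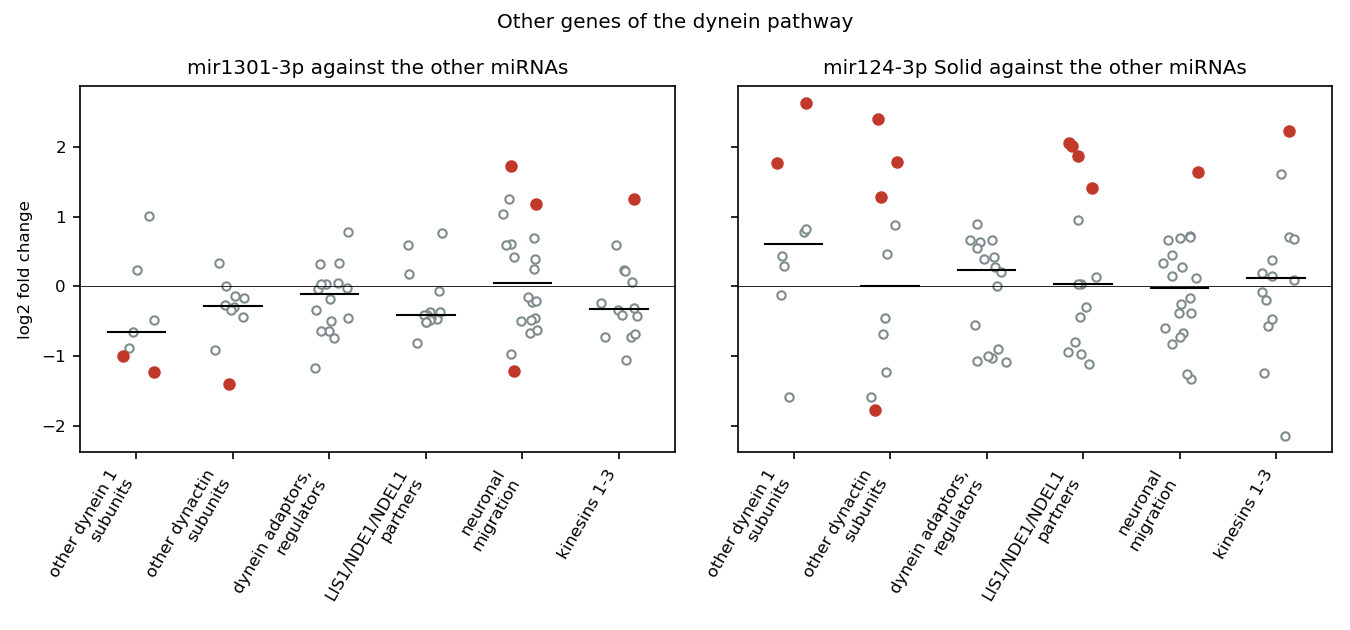
Log2 fold change (vertical axis) of the listed pathway genes with mir1301-3p (left) and mir124-3p Solid (right) against the other miRNAs, by list; points are genes, filled where the adjusted p was under 0.05, and lines are list medians. With mir1301-3p 3 filled points lie above 0 and 4 below, and with mir124-3p Solid 11 lie above and 1 below.

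The remaining pulldowns gave few calls among the listed genes. With mir1180-3p 3 of 81 (3.70%) were called higher and none lower, against 1.92% and 0.153% of all genes tested. DCTN5 (p25, at the pointed end of dynactin) had 136 and 142 CPM, against 26.2 to 64.2 CPM in the other 10 libraries, and its log2 fold change was 1.52 ± 0.24 (SE; edgeR adjusted p = 0.00092). DYNC1LI2 had 258 and 301 CPM, against 62.4 to 154 CPM, a change of 1.31 ± 0.24 (edgeR adjusted p = 0.0038). KIFAP3, the cargo-binding subunit of kinesin-2, had 152 and 312 CPM, against 37.3 to 106 CPM, a change of 1.90 ± 0.29 (edgeR adjusted p = 0.00058). Without mir1180-3p replicate 1 the calls of DYNC1LI2 (1.16) and KIFAP3 (1.24) were lost.

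With mir550-3p 2 of 81 (2.47%) were called higher and 1 (1.23%) lower, against 1.2% and 0.306% of all genes tested. The NUDC relatives NUDCD1 and NUDCD2, which belong to the same family of HSP90 co-chaperones, were the higher ones, while NUDC itself had 17.0 and 17.9 CPM there. NUDCD2 had 484 and 498 CPM, against 133 to 323 CPM in the other 10 libraries, and its log2 fold change was 1.12 ± 0.25 (SE; edgeR adjusted p = 0.032). NUDCD1 had 161 and 232 CPM, against 69.4 to 135 CPM, a change of 1.15 ± 0.24 (edgeR adjusted p = 0.019). DCTN5 was lower, at 26.2 and 28.7 CPM, against 40.3 to 142 CPM, a change of -1.22 ± 0.29 (edgeR adjusted p = 0.045). Leaving out either mir550-3p library ended all 3 calls: without replicate 1 and without replicate 2 the values were 1.34 and 0.94 (NUDCD1), 1.04 and 1.20 (NUDCD2), and -1.34 and -1.10 (DCTN5). NUDCD2 also lost its call without either mir1180-3p library, mir1301-3p replicate 2 or mir3613-5p replicate 2 (1.07 to 1.14), and DCTN5 without either library of mir1180-3p, mir1301-3p or mir3613-5p, or mir1260a-5p replicate 1 (-1.25 to -1.17). With mir1260a-5p, mir1271-5p and mir3613-5p neither edgeR nor DESeq2 called any of the 81, and 3, 5 and 8 had an unadjusted edgeR p under 0.05.

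The genes whose log2 CPM ran most like each member over the same 12 libraries differed from member to member. They were RAB40B (r = 0.96) and PIF1 (r = 0.95) for NDEL1, ATAD2 (0.97) and INADL (0.93) for DYNC1H1, and SLC44A5 (0.90) and MED1 (0.87) for NUDC. For DYNC1I2 they were STARD4 (0.89) and AGAP1 (0.84), and for DYNLL1 AMZ2 (0.95) and CCNB1IP1 (0.93). For DCTN1 they were CIB2 (0.89) and PAK4 (0.89), and for DCTN2 NUDT14 (0.98) and GCHFR (0.97). None of the 9 genes was among the 2 genes most like another of them. These libraries share their processing and groups, and the correlations are a description.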

How the data were processed

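The authors deposited 1 table of raw counts for 19077 genes, each with 1 RefSeq mRNA and symbol, with 1 column per library and no normalisation. TopHat2 and hg19 are named in the submitters' processing notes, and a SOLiD kit and Trizol extraction in the labels' protocols. How reads were counted, whether strand was used, the annotation release and any shared batches are not stated there. The tests were edgeR's robust quasi-likelihood F tests (edgeR 4.0.16 under R 4.3.3), after filterByExpr and TMM scaling. They compared each pair of libraries with the other 5 pairs, averaged by miRNA and with replicates unpaired, and the mir124-3p Solid library with the average of all 6 pairs. The Illumina libraries entered no test. CPM were TMM-scaled over all 16 libraries; log2 CPM for correlations used a prior count of 2. Errors are SD over libraries or SE of the fitted contrast.

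Members and lists were chosen with earlier results of these data known; the genes of the lists were taken from knowledge of the pathway. Named genes were all 9 members, up to 3 called genes per list and comparison by adjusted p whose libraries all lay clear of the others, and the 2 genes most like each member. KLC3, CAPZB and KATNA1 lay outside that rule, and overlapping genes (MYH10, MYH11, GPATCH3, NR0B2, MBD6) were added after values were seen. Alternatives were DESeq2 1.42.0, upper-quartile scaling, no filter, a replicate block, leaving out each library, scaling to the library total and, added after seeing the data, 2 other references.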

Additional observations from a re-analysis of the deposited data

How the results depend on the processing

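Of 1062 fold changes of the 9 genes under other settings, 1000 were counted as unchanged. For a gene called with the main settings this meant the same sign and call, whatever the size. For the rest it meant a shift smaller than the SE. Another 43, not called with the main settings, moved by more than their SE. A call was lost by 9 and gained by 10, and none that was called changed sign. Members called in mir1301-3p numbered 2 under upper-quartile scaling (NDE1 added, 1.27), 2 with DESeq2, 3 with the replicate block (NDE1 at 0.89, DYNC1H1 at -0.999) and 2 with mir124-3p Solid in the reference, against 1, and 1 to 2 with a library left out. In mir124-3p Solid upper-quartile scaling left 1 (NDEL1 fell to 0.98), against 2, and leaving out a library gave 1 to 3. DESeq2 called 1 in mir1271-5p. In the other comparisons leaving out a library gave 0. Replicate numbers did not pair the libraries throughout: of 15 pairs with the same number 6 correlated above 0.1 (-0.14 to 0.36). Whether some libraries of the same number shared a batch was not tested.

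Genes called under upper-quartile scaling were 50 in mir1271-5p (against 107), 4438 in mir1301-3p (2815) and 9 in mir3613-5p (16). That scaling moved the median of all genes by 0.40 (mir1301-3p), -0.24 (mir1271-5p), -0.19 (mir3613-5p), -0.18 (mir124-3p Solid), 0.16 (mir1180-3p) and -0.12 (mir550-3p). DESeq2 called 691 in mir1180-3p (366), 64 in mir1260a-5p (38), 135 in mir3613-5p, 863 in mir550-3p (266) and 2659 in mir124-3p Solid (1613). With mir1301-3p out of the reference 123 were called in mir550-3p, where NUDCD1 (1.10) and NUDCD2 (1.03) lost their calls. Leaving out a library gave 170 to 438 genes in mir1180-3p, 19 to 50 in mir1260a-5p, 35 to 174 in mir1271-5p, 114 to 4509 in mir1301-3p, 8 to 39 in mir3613-5p, 9 to 616 in mir550-3p and 1257 to 1945 in mir124-3p Solid. The lowest mir1301-3p counts, 114 and 142, came without replicate 1 and replicate 2 of mir1301-3p, and the highest, 4509, without mir1271-5p replicate 2. Without the single mir124-3p Solid library its comparison has no value. On the library total, 50 of 72 group means stayed within 1 SD, and the order of the groups changed for some genes, such as PAFAH1B1 and DYNC1H1. The common coefficient of variation of 0.350 limits what pairs of libraries can show, and the cause of these shifts was not tested.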
